A study of Mus musculus with 15 samples.

Results

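The 2-cell embryos of 10–12 m female mice were compared with those of 8–10 w female mice, with 2 samples in each group, which are 4 of the 15 samples of the series. Each sample pooled about 50 embryos collected at 28 hpi (hours post insemination), made by in vitro fertilization of oocytes of C57BL/6 females with sperm of adult C57BL/6 males. The 10–12 m and 6–8 m females were former breeders and the 8–10 w females were virgins, so that age and breeding history cannot be told apart. The 2 samples of 2-cell embryos of 6–8 m females entered the same model and are given where they show how a gene lay between the ages. The libraries were made by Smart-Seq2, which amplifies polyadenylated RNA of few cells, in 2 separate experiments, and the experiment of each sample is not labelled. Nothing in the labels says that samples of a group came from separate animals, so that p-values measure the spread between these pooled samples, which may be technical.

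At the 2-cell stage, the mouse embryo passes from maternal to zygotic control. Transcripts stored in the oocyte are degraded by deadenylation and decay, and the embryo's own genome is switched on in the wave known as zygotic genome activation (ZGA), when the Zscan4 cluster and other stage-specific genes are transcribed. A transcript level in a pool of 2-cell embryos therefore holds what is left of the maternal store together with what was newly made, and fewer cells that carry an RNA cannot be told apart from less RNA per cell.

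The total number of fragments was 15067298 and 13566504 at 8–10 w and 12527845 and 15549082 at 10–12 m. Levels are given as FPM, the fragments of a gene scaled to a common total per sample, further scaled by TMM (normalized FPM), on the longest RefSeq transcript of each gene. Across the genes tested, the log2 levels of the 8–10 w samples correlated with each other at 0.979 and those of the 10–12 m samples at 0.976, as a description across genes, which are not independent replicates. Samples of the same age were not always the closest pair. The 10–12 m replicate 1 was closest to 6–8 m replicate 2 with 0.983, and the 10–12 m replicate 2 was closest to 6–8 m replicate 1 with 0.983. The first principal component, with 28.95% of the variance, placed the 8–10 w samples at -21.68 and -30.68 and the 10–12 m samples at 4.13 and 29.69. The second, with 26.01%, set samples of the same age apart, at 25.53 and -1.68 for 8–10 w and -31.83 and 5.62 for 10–12 m.

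The labelled stage was checked against its markers, since a source label of these samples names oocytes while the titles name 2-cell embryos. Zscan4c, a marker of ZGA, had normalized FPM of 42.8 and 101 at 8–10 w and 111 and 207 at 10–12 m. Zfp352, another 2-cell gene, had 244 and 360 against 319 and 480, and Tcstv3 had 138 and 185 against 173 and 214. The stage-specific genes were thus present in all 4 samples. The oocyte-derived transcripts Gdf9 (171 and 192 against 139 and 223), Zp3 (79.8 and 74.2 against 65.6 and 63.2) and Bmp15 (525 and 567 against 595 and 854) were present as well. Markers of later stages were mixed. Of the 20 genes of that list, 13 passed the filter on low counts, with a median level of 14.0 at 8–10 w and 11.8 at 10–12 m. Dppa5a, the most abundant per length, had 246 and 221 against 268 and 166. Cdx2, which marks the trophectoderm, was at 0 in every sample, where 3 fragments stand for 0.257 normalized FPM in 10–12 m replicate 1 and 0.186 in replicate 2. Nanog, which marks the pluripotent cells of the blastocyst, was at 0.528 or lower. These limits cover counting error only, because fragments of amplified cDNA without molecular identifiers are not independent molecules.

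Markers of other cells were low. Among the 25 genes of cumulus and granulosa cells, the somatic cells around the oocyte, 6 passed the filter on low counts, and their summed level over all 25 was 26.9 and 27.0 at 8–10 w and 35.2 and 32.1 at 10–12 m. Ptx3 was at 0 in all samples, Has2 was at 0.314 or lower and Fshr at 0 in the 4 samples compared, and Inhba was at 0 in all but 10–12 m replicate 1, with 0.0856. Tnfaip6 had 3.52 and 3.32 against 6.16 and 6.33, and the most abundant per length was Amhr2, with 7.42 and 6.72 against 7.36 and 6.64. The 16 sperm genes summed to 70.2 and 74.4 against 73.9 and 75.1, of which Odf2 made 46.5 and 59.9 against 49.9 and 55.2, while Prm1, Tnp1 and Tnp2 were at 0.171 or lower. The 11 blood genes summed to 27.2 and 24.7 against 48.0 and 28.5. In that list, Hbb-bs was at 0 in all samples, Hba-a1 had 10.8 and 9.81 against 14.0 and 12.0, and the leukocyte lysozyme Lyz2 had 1.07 and 1.28 against 14.5 and 0.683. The blood sum was highest in 10–12 m replicate 1, and that of replicate 2 was slightly above the 8–10 w samples. The part of these cells in the results below was not tested, except where values are given.

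Of the 13142 genes tested, 17 (0.129%) were called, at a log2 fold change over 1 in size and an adjusted p-value below 0.05, between 10–12 m and 8–10 w 2-cell embryos. Of these DEGs, 15 (0.114%) were higher at 10–12 m (risers) and 2 (0.0152%) were lower. The risers held 4 genes of the oocyte, Rfpl4, Obox1, Obox2 and Dazl, together with Mmp12, Psenen, Med30, Ifitm6, Glrx, Zfp735, Crabp2, Tpp1, Mgst3, E330021D16Rik and Vta1, and the genes that fell were Prl8a2 and Ddx60. All 17 are annotated as protein-coding, all had samples of the 2 ages that did not overlap, and in none did the longest transcript overlap that of another gene. Over all genes tested, the samples did not overlap in 21.1% (higher) and 20.0% (lower). At an unadjusted p-value below 0.05, there were 1353 genes (10.3%), 904 higher (6.88%) and 449 lower (3.42%). The median log2 fold change over all genes was -0.0015, and 77.8% of the genes had an absolute value below 0.5. The count of DEGs depended on the samples. It was 0 without 8–10 w replicate 1, 4 without 8–10 w replicate 2, 140 without 10–12 m replicate 1 and 32 without 10–12 m replicate 2, and these fits called 0, 3, 16 and 10 of the 17 genes. The 3 called without 8–10 w replicate 2 were Mmp12, Psenen and Med30, and the 7 lost without 10–12 m replicate 2 were Rfpl4, Obox1, Obox2, Dazl, Ddx60, E330021D16Rik and Vta1. The 17 genes kept their direction in all 4 fits. Without TMM scaling it was 2, both higher. For 2 against 2 samples, 0.333 is the smallest two-sided p-value of an exact permutation test.

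**Figure D1:**
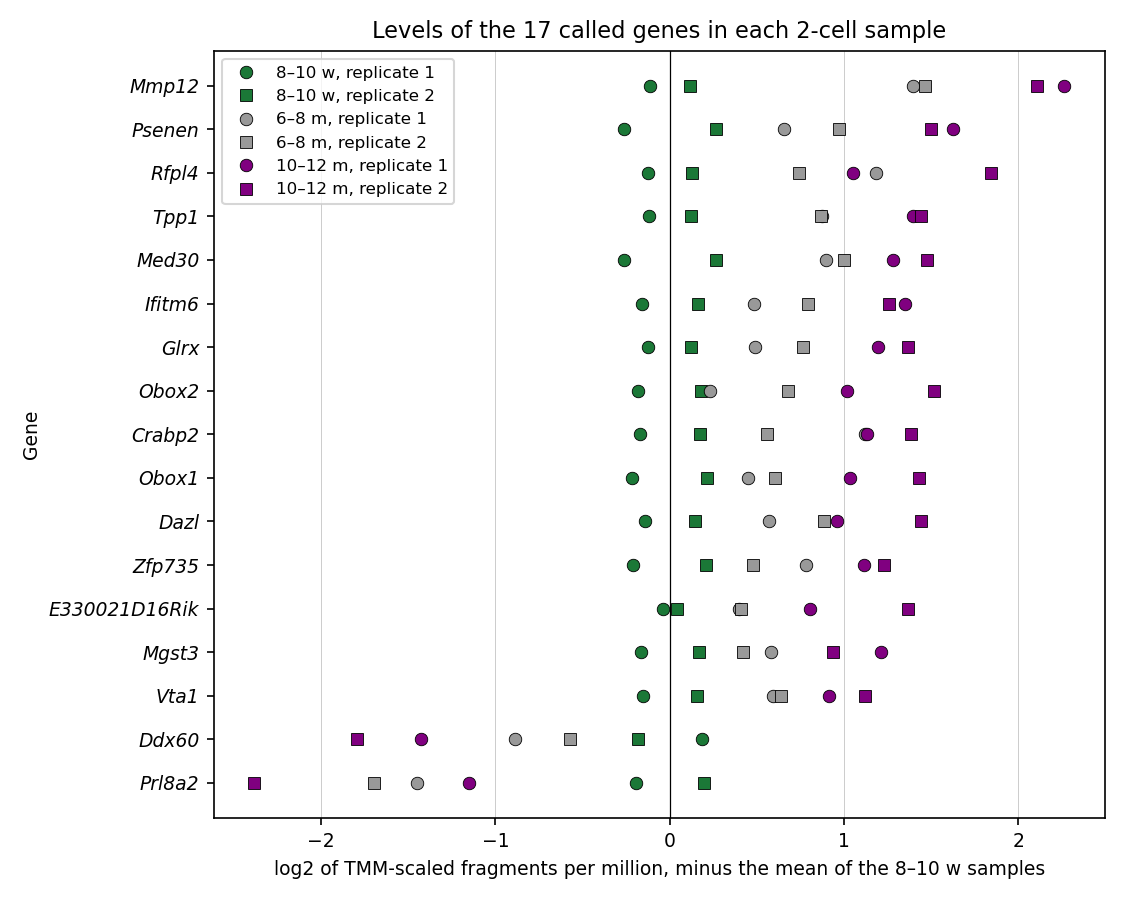
Level of each of the 17 DEGs in each 2-cell sample, as log2 normalized FPM minus the mean of the 8–10 w samples (x axis), with genes ordered by log2 fold change. Circles and squares are replicates 1 and 2; the 10–12 m samples lie beyond the 8–10 w samples in all 17 genes, from 2.18 (Mmp12) to -1.67 (Prl8a2) in the fitted log2 fold change.

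Among the genes that rose, 4 are known from the oocyte. Rfpl4 (chr7:5109787-5116911, minus strand, 3 exons) encodes a RING finger protein of the oocyte. Its normalized FPM was 258 and 307 at 8–10 w and 583 and 1010 at 10–12 m, with a log2 fold change of 1.50 ± 0.26 (SE) and an adjusted p-value of 0.0241. The higher value belonged to 10–12 m replicate 2, and the gene was not called without that sample (adjusted p-value 0.0698), nor without 8–10 w replicate 1 (0.576) or replicate 2 (0.153) by the edgeR test. Dazl (chr17:50279393-50293620, minus strand, 11 exons), an RNA-binding protein of germ cells that controls translation, had 124 and 151 against 266 and 372 (log2 fold change 1.21 ± 0.22, adjusted p-value 0.0317), and it was not called without 10–12 m replicate 2 or either 8–10 w replicate. Rfpl4 and Dazl also lost the call without TMM and with a replicate block, and each was called in 10 of the 15 other settings.

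Obox1 (chr7:15547257-15556846, plus strand) and Obox2 (chr7:15388851-15398543, plus strand) belong to the oocyte-specific homeobox family, whose maternal members act in ZGA. Obox1 had 208 and 280 normalized FPM at 8–10 w and 495 and 649 at 10–12 m, a log2 fold change of 1.23 ± 0.22 (adjusted p-value 0.0317). Obox2 had 171 and 220 against 392 and 554, a log2 fold change of 1.27 ± 0.23 (adjusted p-value 0.0317). In both genes, the 2 ages were apart, with 10–12 m replicate 2 the highest. Both were called in 9 of the 15 other settings. The 6 that lost the call were the fits without 10–12 m replicate 2, without either 8–10 w replicate, without TMM, with the length trend removed and with a replicate block. The 2 genes are near copies, and how fragments that fit both were counted is not stated, so that the share of each is uncertain. Per length, the mean level (FPKM scaled by TMM) at 10–12 m was 475 for Rfpl4, 470 for Obox1, 356 for Obox2 and 108 for Dazl.

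The promoters of the 4 oocyte genes that rose and of Ddx60, which fell, are shown because these genes are DEGs. Each runs from 250 bases before to 50 bases after the annotated start (RefSeq, GRCm38.p6). Capitals mark matches, on either strand, to the TATA box (TATAAA), the CCAAT box (CCAAT), the GC box (GGGCGG), an OTX and OBOX type of motif (TAATCC) and an NR5A2 type of motif (AAGGTCA). The windows are chr7:5116862-5117161 (Rfpl4, minus strand), chr7:15547007-15547306 (Obox1, plus strand), chr7:15388601-15388900 (Obox2, plus strand), chr17:50293571-50293870 (Dazl, minus strand) and chr8:61927837-61928136 (Ddx60, plus strand).
Rfpl4: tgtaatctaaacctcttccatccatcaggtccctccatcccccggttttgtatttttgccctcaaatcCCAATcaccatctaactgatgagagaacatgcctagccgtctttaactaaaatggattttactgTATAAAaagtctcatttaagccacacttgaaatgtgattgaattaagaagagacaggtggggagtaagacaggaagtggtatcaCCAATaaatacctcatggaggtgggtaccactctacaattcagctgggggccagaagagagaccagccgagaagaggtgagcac
Obox1: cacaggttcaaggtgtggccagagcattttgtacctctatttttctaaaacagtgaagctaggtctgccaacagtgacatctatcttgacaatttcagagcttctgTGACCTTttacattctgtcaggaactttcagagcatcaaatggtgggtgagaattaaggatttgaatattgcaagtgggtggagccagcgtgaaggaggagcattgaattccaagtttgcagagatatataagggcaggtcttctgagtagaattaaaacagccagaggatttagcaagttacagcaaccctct
Obox2: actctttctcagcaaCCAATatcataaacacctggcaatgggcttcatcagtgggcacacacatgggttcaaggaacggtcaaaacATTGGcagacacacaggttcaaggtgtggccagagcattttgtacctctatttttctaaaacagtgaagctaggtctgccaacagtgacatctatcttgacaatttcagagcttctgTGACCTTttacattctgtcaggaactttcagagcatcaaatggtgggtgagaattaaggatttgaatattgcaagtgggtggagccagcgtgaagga
Dazl: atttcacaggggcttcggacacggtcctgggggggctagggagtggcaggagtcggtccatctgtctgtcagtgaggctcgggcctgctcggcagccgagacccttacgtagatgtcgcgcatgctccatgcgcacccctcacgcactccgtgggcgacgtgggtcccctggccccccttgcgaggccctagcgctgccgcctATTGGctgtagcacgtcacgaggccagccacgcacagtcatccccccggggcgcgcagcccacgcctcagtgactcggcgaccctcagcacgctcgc
Ddx60: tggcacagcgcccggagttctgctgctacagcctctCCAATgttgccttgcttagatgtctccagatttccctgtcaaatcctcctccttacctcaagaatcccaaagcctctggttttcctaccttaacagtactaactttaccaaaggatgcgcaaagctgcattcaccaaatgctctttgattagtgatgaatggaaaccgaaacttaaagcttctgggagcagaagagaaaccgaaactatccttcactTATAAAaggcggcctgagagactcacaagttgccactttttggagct

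The windows of Obox1 and Obox2 overlap in sequence. Shifted by 97 bases, they share 203 bases with 203 identical (100%), and both hold the NR5A2 type of motif as its reverse complement TGACCTT within that stretch. The shared stretch lies further from the annotated start in Obox1 than in Obox2. Rfpl4 held a TATA box and 2 CCAAT boxes, and Dazl held 1 CCAAT box. Ddx60 held a TATA motif just after the annotated start and 1 CCAAT box. Among the 10 DEGs with the smallest adjusted p-values that rose and the 2 that fell, 12 in all, 10 had a promoter in the table. Of these 10, 4 held the TATA box, 5 the CCAAT box, 1 the GC box, 0 the TAATCC motif and 2 the AAGGTCA motif. Over all 32851 promoters of the same length, the shares were 13.6%, 37.4%, 35.7%, 7.06% and 4.72%. A match describes the letters only and is not a site of binding.

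The maternal list held further genes in the same direction. Like the other lists, it was chosen with earlier results of these data known. It includes the 4 oocyte DEGs and near copies such as Obox1 and Obox2, so that its counts are no independent evidence. Of its 50 genes tested, 42 (84.0%) had a positive log2 fold change, against 49.8% of all genes, and 4 were DEGs. At an unadjusted p-value below 0.05, 22 were higher (44.0%, against 6.88%) and 0 lower (0.0%, against 3.42%). Both 10–12 m samples lay above both 8–10 w samples in 28 genes (56.0%, against 21.1%) and below them in 4 (8.0%, against 20.0%). Its median log2 fold change was 0.37 (quartiles 0.10 and 0.78), against -0.0015 over all genes with quartiles of -0.24 and 0.29. The median was lowest without 10–12 m replicate 2, with 0.23, and highest without 8–10 w replicate 2, with 0.47. Genes of the list that did not pass the threshold include the anti-apoptotic Bcl2l10 (412 and 486 against 764 and 1100, adjusted p-value 0.091) and Ooep, a member of the subcortical maternal complex (32.5 and 23.9 against 56.1 and 51.3, adjusted p-value 0.091). Per length, the most abundant was Dppa3, a factor that protects the maternal genome from demethylation. It had 5270 and 6780 against 7900 and 4910, a log2 fold change of 0.09, and its samples overlapped. Not all genes of the oocyte were higher. Gdf9, a growth factor of the oocyte, had a log2 fold change of -0.003, which was -0.38 without 10–12 m replicate 2 and 0.30 without 10–12 m replicate 1. Zp3, a protein of the zona pellucida, had one of -0.26.

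**Figure D2:**
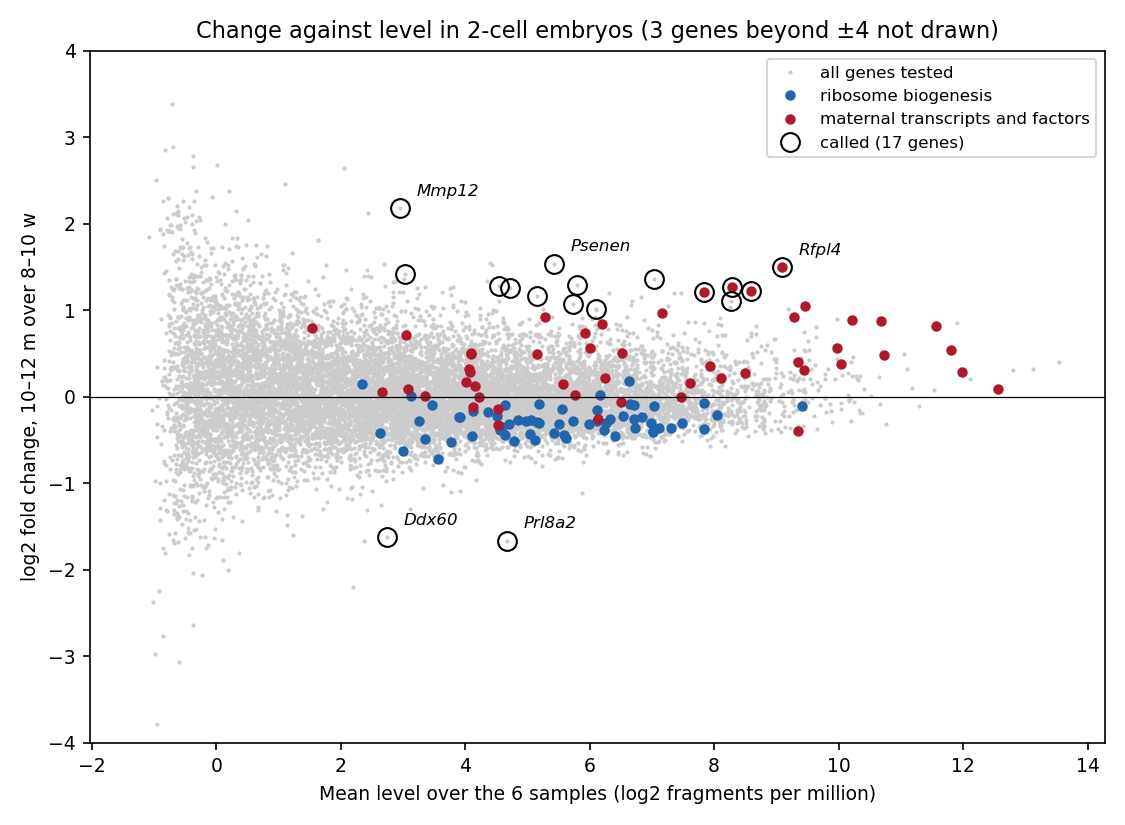
log2 fold change of 10–12 m over 8–10 w 2-cell embryos (y axis) against the mean level over the 6 samples (x axis, log2 FPM) for the genes tested, with maternal genes in red, ribosome biogenesis genes in blue and the 17 DEGs circled. Of the maternal genes tested, 42 of 50 lie above 0, and of the ribosome biogenesis genes, 4 of 61.

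Mmp12 (chr9:7347374-7360461, plus strand, 10 exons), which encodes macrophage elastase, had the largest fold change of the DEGs. It had 2.58 and 3.02 normalized FPM at 8–10 w, from 41 and 40 fragments, and 13.4 and 12.0 at 10–12 m, from 157 and 193 fragments. The log2 fold change was 2.18 ± 0.285 (SE) with an adjusted p-value of 0.00267. Markers of macrophages were given beside it in a list of 15 genes written after the values were seen. The number of these at 0 was 4 and 6 at 8–10 w and 2 and 7 at 10–12 m. The filter passed 7 genes, with a median log2 fold change of 0.55 (0.097 without 10–12 m replicate 1 and 0.928 without replicate 2), 5 higher, and 3 higher and 0 lower at an unadjusted p-value below 0.05 (42.9%, against 6.88% of all genes). C1qc was at 0 in all samples and Adgre1 and Mpeg1 were above 0 in 10–12 m replicate 1 alone, at 0.0856 and 0.171. Their sum was 28.9 and 31.7 at 8–10 w and 59.9 and 27.1 at 10–12 m. Cd68 had 1.45 and 1.13 against 5.48 and 1.68, and Ptprc, the common leukocyte antigen, had 0.126 and 0 against 0.941 and 0. The most abundant of the list per length was Ctss, with 10.7 and 10.6 against 21.7 and 9.80. The part of such cells in this result was not tested.

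Psenen (chr7:30561866-30563184, minus strand), a subunit of the gamma-secretase protease, had 18.7 and 26.9 against 69.2 and 63.4 normalized FPM, a log2 fold change of 1.54 ± 0.22 (adjusted p-value 0.00613). Mmp12 and Psenen were called in 14 of the 15 other settings of the fit, all but the one without 8–10 w replicate 1. Med30 (chr15:52712445-52730431, plus strand), a subunit of the Mediator complex that links transcription factors to RNA polymerase II, had 58.7 and 84.7 against 171 and 196 (log2 fold change 1.36 ± 0.22, adjusted p-value 0.0142). It was called in 12 of the 15 settings, more than any other DEG but Mmp12 and Psenen. Ifitm6 (chr7:141015812-141016892, minus strand), of the interferon-induced transmembrane family, had 29.4 and 36.8 against 83.8 and 78.6 (log2 fold change 1.29 ± 0.21, adjusted p-value 0.0142). In these 3 genes, the 10–12 m samples lay close together and well above the 8–10 w samples.

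Enzymes that use glutathione were among the DEGs. Glrx (chr13:75839886-75850151, plus strand), the glutaredoxin that removes glutathione from proteins, had 12.8 and 15.2 against 31.9 and 35.9 (log2 fold change 1.28 ± 0.22, adjusted p-value 0.0248). Mgst3 (chr1:167372384-167393797, minus strand), a microsomal glutathione S-transferase, had 31.4 and 39.5 against 81.5 and 67.4 (log2 fold change 1.07 ± 0.21, adjusted p-value 0.0404). Glrx was the DEG of the oxidative stress list, which had 14 of 30 genes higher and a median log2 fold change of -0.05, which lay between -0.164 (without 8–10 w replicate 2) and -0.005 (without 10–12 m replicate 1) with 1 sample left out. In that list, 4 genes (13.3%, against 6.88% of all genes) were higher and 1 (3.33%, against 3.42%) lower at an unadjusted p-value below 0.05, among them G6pdx, which makes NADPH (38.4 and 49.1 against 62.8 and 81.5, adjusted p-value 0.182), and the peroxiredoxin Prdx1 (384 and 400 against 587 and 537, adjusted p-value 0.375). Gclc, which makes the precursor of glutathione, had 16.4 and 18.1 against 11.1 and 10.7 (adjusted p-value 0.349). Its most abundant gene per length, Prdx2, had 617 and 563 against 644 and 716.

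The other genes that rose have different roles. Zfp735 (chr11:73688778-73713808, plus strand), a zinc finger protein, had 19.1 and 25.5 against 47.7 and 51.7 (log2 fold change 1.16, adjusted p-value 0.0323). Crabp2, which carries retinoic acid, had 13.3 and 16.9 against 32.9 and 39.2 (1.26, adjusted p-value 0.0335). Tpp1, a peptidase of the lysosome, had 4.03 and 4.76 against 11.5 and 11.9 (1.42, adjusted p-value 0.0345). Their samples were apart in every case. Vta1, a cofactor of membrane scission in the endosome, had 40.4 and 50.1 against 84.9 and 97.9 (1.01, adjusted p-value 0.0465), and E330021D16Rik, a protein-coding gene of unnamed function, had 200.0 and 211 against 359 and 529 (1.11, adjusted p-value 0.0448). Vta1 was called in 7 of the 15 other settings, the fewest of the 17 genes. Of the 15 genes that rose, 6 lie on chromosome 7, which holds 7.52% of the genes tested and has a median log2 fold change of -0.01, among them the neighbours Obox1 and Obox2.

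Prl8a2 and Ddx60 fell. The study lists both among the genes that differed between MII oocytes of 8–10 w and older mice. Prl8a2 (chr13:27345673-27354215, plus strand, 6 exons), a hormone-like gene of the prolactin family known from the decidua, had 39.9 and 52.2 normalized FPM at 8–10 w and 20.5 and 8.75 at 10–12 m, a log2 fold change of -1.67 ± 0.29 (adjusted p-value 0.0248). Its 10–12 m samples lay apart from each other, with replicate 2 the lower, and both below the 8–10 w samples. Ddx60 (chr8:61928087-62037701, plus strand, 38 exons), a helicase of the antiviral response, had 11.5 and 8.91 against 3.77 and 2.92 (-1.62 ± 0.30, adjusted p-value 0.0323). These levels rested on 183 and 118 against 44 and 47 fragments. Ddx60 was called in 9 of the 15 other settings. The 6 that lost the call were the fits without 10–12 m replicate 2, without either 8–10 w replicate, without TMM, with the length trend removed and with a replicate block.

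Ddx60 was the DEG of the interferon and RNA sensing list, in which the other genes went either way. Of 41 genes, 26 passed the filter, and 10 were higher (38.5%, against 49.8% of all genes) and 16 lower. There were 4 higher (15.4%, against 6.88%) and 3 lower (11.5%, against 3.42%) at an unadjusted p-value below 0.05, Ddx60 among the latter. The median log2 fold change was -0.19. It was 0.0007 without 8–10 w replicate 1 and 0.03 without 10–12 m replicate 1. The RNA sensor Ddx58 (RIG-I) had 9.31 and 8.76 against 11.8 and 20.0, a log2 fold change of 0.82 (adjusted p-value 0.242). The oligoadenylate synthetase family members Oas1d (73.1 and 73.0 against 81.3 and 141) and Oas1e (37.6 and 42.6 against 46.8 and 68.6), of which Oas1d was the most abundant of the list per length, had log2 fold changes of 0.61 and 0.53 with adjusted p-values of 0.346 and 0.387. Both were highest in 10–12 m replicate 2.

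The genes transcribed at ZGA lay above the rest but none was a DEG. Of 46 genes tested, 35 (76.1%, against 49.8% of all genes) had a positive log2 fold change, and the median was 0.32. At an unadjusted p-value below 0.05, 15 were higher (32.6%, against 6.88%) and 1 was lower (2.17%, against 3.42%). Both 10–12 m samples lay above both 8–10 w samples in 10 genes (21.7%), close to the 21.1% of all genes, and below them in 5 (10.9%, against 20.0%). The median rested on 10–12 m replicate 2, without which it was 0.05, while without 10–12 m replicate 1 it was 0.59. Zscan4b had 7.23 and 13.7 against 17.9 and 34.8 (log2 fold change 1.34 ± 0.32, adjusted p-value 0.104). Zscan4c had a log2 fold change of 1.15 (adjusted p-value 0.154), and Zscan4d, with 71.9 and 119 against 132 and 207, of 0.83 (adjusted p-value 0.197). Gm2016, another gene of the list, had 154 and 266 against 361 and 501 (1.04, adjusted p-value 0.109). In each of these genes, 10–12 m replicate 2 was the highest and 8–10 w replicate 1 the lowest of the 4 samples. Obox6, the most abundant of the list per length, had 620 and 576 against 468 and 458 (-0.37, adjusted p-value 0.55). The Zscan4 genes are near copies of each other, so that the level of each is uncertain.

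Genes of ribosome biogenesis, which build the ribosome in the nucleolus, lay below the rest. Of 61 genes tested, 57 had a negative log2 fold change and 4 a positive (6.56%, against 49.8% of all genes), and none was a DEG. At an unadjusted p-value below 0.05, 9 were lower (14.8%, against 3.42%) and 0 higher (0.0%, against 6.88%). The median log2 fold change was -0.29 (quartiles -0.39 and -0.18). In 38 genes (62.3%) both 10–12 m samples lay below both 8–10 w samples, against 20.0% of all genes, and in 0 genes both lay above. The summed level was 5280 and 4834 normalized FPM at 8–10 w, 4348 and 4599 at 6–8 m and 4448 and 4111 at 10–12 m. The median was between -0.36 and -0.22 when any of the 4 samples was left out, with the smallest size without 8–10 w replicate 1. Polr1a, the largest subunit of RNA polymerase I, had 17.7 and 12.5 against 9.93 and 8.50, a log2 fold change of -0.72 ± 0.26 (adjusted p-value 0.302). Ddx10, a helicase of ribosome assembly, had 43.1 and 42.0 against 30.8 and 29.5 (-0.50, adjusted p-value 0.39). Wdr3 and Wdr36, both of the processome of the small subunit, had 32.7 and 36.1 against 27.3 and 20.9 and 56.5 and 63.8 against 44.9 and 41.4 (adjusted p-values 0.397 and 0.407). Npm1, the most abundant per length, had 761 and 687 against 704 and 640 and its samples overlapped.

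Splicing factors were examined because the study asked whether splicing is altered in 2-cell embryos of aging females. Of 108 genes tested, 79 had a negative and 29 a positive log2 fold change (26.9%, against 49.8% of all genes), and none was a DEG. At an unadjusted p-value below 0.05, 8 were lower (7.41%, against 3.42%) and 2 higher (1.85%, against 6.88%). The median was -0.13, and it lay between -0.16 and -0.07 when 1 of the 4 samples was left out, with the smallest size without 10–12 m replicate 2. Puf60, a factor that binds polypyrimidine tracts near the 3′ splice site, had 12.9 and 11.8 against 8.30 and 8.31 (log2 fold change -0.57 ± 0.25, adjusted p-value 0.424). Rbm10, an RNA-binding regulator of exon choice, had 22.5 and 26.5 against 17.3 and 15.7 (-0.57, adjusted p-value 0.375). Dhx8, the helicase that frees the spliced mRNA, had 70.4 and 67.2 against 53.7 and 46.0 (-0.47, adjusted p-value 0.409), and Tra2b, a regulator that binds exonic enhancers, had 170.0 and 143 against 119 and 110.0 (-0.45, adjusted p-value 0.435). The samples of the 2 ages did not overlap in these 4 genes. In the list, 36 genes (33.3%) had both 10–12 m samples lower and 11 (10.2%) both higher, against 20.0% and 21.1% of all genes. Snrpg, a core protein of the small nuclear ribonucleoproteins and the most abundant per length, had 213 and 168 against 313 and 232 (0.51, adjusted p-value 0.447). These counts are totals on a transcript and hold no information on the use of its exons.

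**Figure D3:**
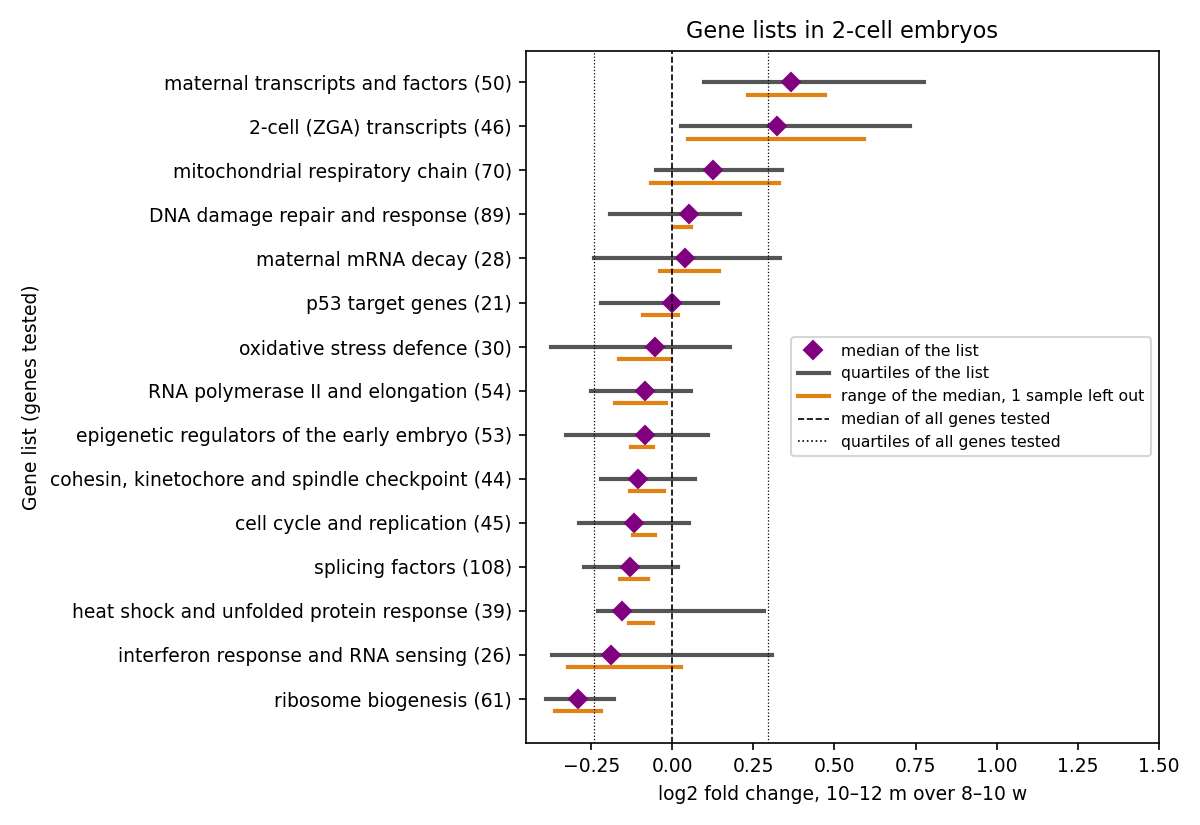
Median log2 fold change of 10–12 m over 8–10 w 2-cell embryos (diamonds) with quartiles (grey) for lists with at least 20 genes tested, and the range of the median when 1 of the 4 samples is left out (orange). Maternal transcripts have the highest median with 0.37 and ribosome biogenesis the lowest with -0.29, and dashed and dotted lines mark the median and quartiles of all genes tested.

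In the lists that follow, the counts at an unadjusted p-value below 0.05 stand beside 6.88% of all genes higher and 3.42% lower. Of 89 genes of DNA damage repair and response tested, 48 were higher and 41 lower, 8 (8.99%) were higher and 4 (4.49%) lower at that p-value, and the median log2 fold change was 0.05 (0.006 without 8–10 w replicate 1 and 0.01 without 10–12 m replicate 2). Rpa3, of the protein that coats single-stranded DNA, had 46.2 and 44.7 against 86.6 and 60.9 (0.70, adjusted p-value 0.221). Polb, the polymerase of base excision repair, had 36.5 and 42.3 against 54.0 and 61.4 (0.55, adjusted p-value 0.328). Ercc3 and Xpa, of nucleotide excision repair, had 15.3 and 16.8 against 9.93 and 10.5 (-0.65, adjusted p-value 0.344) and 20.1 and 19.9 against 14.5 and 12.0 (-0.59, adjusted p-value 0.377). Among the genes whose splicing the study followed, Cdk9, the kinase of transcription elongation, had 30.3 and 27.7 against 22.0 and 23.0 (-0.37 ± 0.21, adjusted p-value 0.576). Fanca, of the Fanconi anaemia core complex, had 7.04 and 6.26 against 6.50 and 7.26 (0.05, adjusted p-value 0.974). Mnat1, which assembles the CDK-activating kinase, had 21.3 and 14.9 against 14.1 and 14.7 (-0.33, adjusted p-value 0.657). Ube2d3, a ubiquitin-conjugating enzyme and the most abundant of the list per length, had 880.0 and 1110 against 1100 and 1620 (0.46, adjusted p-value 0.52). None of these 4 was called by the edgeR test. The 10–12 m samples lay below the 8–10 w samples in Cdk9 and, narrowly, in Mnat1, as in 20.0% of all genes. In Fanca and Ube2d3, the samples overlapped.

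Targets of p53 had a median of -0.001, with 10 of 21 genes higher, 0 higher and 1 lower at an unadjusted p-value below 0.05. That gene was Ei24, of the endoplasmic reticulum, with 45.7 and 35.4 against 29.5 and 25.6 (-0.56, adjusted p-value 0.347). Mdm2, the ligase that degrades p53 and the most abundant per length, had 168 and 221 against 161 and 156 (-0.30, adjusted p-value 0.64). Tigar (102 and 81.9 against 75.7 and 69.6) and Ddit4 (0.189 and 0.226 against 0.599 and 0.496) had adjusted p-values of 0.596 and 0.604. The 8–10 w values of Ddit4 stand for 3 fragments in each sample.

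Genes of RNA polymerase II and elongation had a median of -0.08 (-0.176 without 10–12 m replicate 1 and -0.02 without replicate 2), with 18 of 54 genes higher, and 3 higher and 1 lower at an unadjusted p-value below 0.05. The general factor Gtf2b had 98.6 and 87.7 against 131 and 148 (0.59, adjusted p-value 0.271), and the elongation factor Ell2 had 113 and 117 against 83.4 and 76.1 (-0.53, adjusted p-value 0.344). Tbpl2, the TBP paralog of the oocyte, had 3.59 and 7.02 against 7.87 and 9.12 (0.69, adjusted p-value 0.441). The polymerase subunits Polr2g and Polr2j, the latter the most abundant per length, had 106 and 115 against 183 and 129 (0.49, adjusted p-value 0.475) and 484 and 573 against 692 and 597 (0.29, adjusted p-value 0.702).

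The machinery of mRNA decay, which clears maternal transcripts at this stage, had 15 of 28 genes higher and a median of 0.04, which lay between -0.038 (without 8–10 w replicate 1) and 0.143 (without 8–10 w replicate 2) with 1 sample left out. At an unadjusted p-value below 0.05, 4 genes were higher and 1 was lower. Btg4, the adaptor that brings the CCR4-NOT deadenylase to maternal mRNA and the most abundant per length, had 1790 and 2450 against 3380 and 4120 normalized FPM (log2 fold change 0.82 ± 0.24, adjusted p-value 0.182). Btg4 is itself an oocyte transcript and also belongs to the maternal list. Zfp36l2, which binds AU-rich elements, had 8.62 and 8.91 against 16 and 11.4 (0.64, adjusted p-value 0.379). Pan3, of a deadenylase, had 306 and 387 against 609 and 443 (0.60, adjusted p-value 0.402), and the exosome ribonuclease Dis3 had 58.8 and 70.3 against 47.8 and 47.0 (-0.44, adjusted p-value 0.46).

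Genes of the mitochondrial respiratory chain had 42 of 70 members higher, 6 higher and 0 lower at an unadjusted p-value below 0.05, and a median of 0.13. The direction depended on the sample set. The median was -0.07 without 10–12 m replicate 1 and -0.01 without 8–10 w replicate 2. Their transcripts are short, with a median of 741.5 nt against 2752 nt over all genes, and relative to genes of similar length the median was -0.01. Ndufa1 (12.8 and 11.7 against 24.6 and 21.3, log2 fold change 0.90, adjusted p-value 0.187), Ndufa4 (111 and 131 against 205 and 165, 0.61, adjusted p-value 0.351) and Ndufa6 (11.3 and 7.47 against 18.4 and 12.6, 0.72, adjusted p-value 0.363) are subunits of respiratory complexes. Cox6c, of cytochrome c oxidase, had 52.0 and 43.6 against 79.2 and 66.5 (0.61, adjusted p-value 0.304). Cox8a, the most abundant per length, had 257 and 224 against 314 and 299 (0.35, adjusted p-value 0.574). In 5 of these 5 genes, 10–12 m replicate 1 was the highest of the 4 samples.

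Heat shock and unfolded protein response genes had 15 of 39 members higher and a median of -0.155 (-0.08 without 8–10 w replicate 1 and -0.061 without 10–12 m replicate 1), with 4 higher and 3 lower at an unadjusted p-value below 0.05. The chaperones Dnajb4 (66.2 and 85.8 against 112 and 142, log2 fold change 0.74, adjusted p-value 0.158) and Hspe1 (44.9 and 49.1 against 68.8 and 69.1, 0.55, adjusted p-value 0.299) lay on one side. The kinase Eif2ak3 (PERK, 35.2 and 43.6 against 25.1 and 23.5, -0.70, adjusted p-value 0.231) and the chaperone Hspa8 (174 and 160.0 against 108 and 124, -0.53, adjusted p-value 0.351) lay on the other. The most abundant per length, Dnajb9, had 913 and 998 against 872 and 813 (-0.18, adjusted p-value 0.806).

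In the list of cohesin, the kinetochore and the spindle checkpoint, 14 of 44 genes were higher, 4 were higher and 0 lower at an unadjusted p-value below 0.05, and the median was -0.11 (-0.027 without 10–12 m replicate 2). Pttg1 (securin), which holds back the cleavage of cohesin and was the most abundant per length, had 553 and 614 against 1190 and 855 (0.81 ± 0.24, adjusted p-value 0.193). Nuf2 and Zw10, both of the kinetochore, had 86.6 and 107 against 138 and 172 (0.68, adjusted p-value 0.206) and 16.2 and 17.4 against 22.9 and 23.8 (0.47, adjusted p-value 0.448). The checkpoint protein Mad2l1 had 516 and 612 against 881 and 762 (0.54, adjusted p-value 0.377). These 4 genes are 9.09% of the list, beside 6.88% of all genes, and none was a DEG. Both 10–12 m samples lay above both 8–10 w samples in 15.9% of the list, beside 21.1% of all genes.

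Epigenetic regulators had 19 of 53 genes higher and a median of -0.085, with 2 higher and 4 lower at an unadjusted p-value below 0.05. The acetyltransferase Kat2b had 16.5 and 18.0 against 10.6 and 8.44 (-0.86 ± 0.24, adjusted p-value 0.158). The remodeller Smarca4 (19.8 and 21.2 against 13.4 and 15.1, -0.52, adjusted p-value 0.412) and the demethylase Kdm5b (204 and 203 against 159 and 137, -0.46, adjusted p-value 0.42) were on the same side. Zfp57, which keeps imprints, had 94.7 and 98.8 against 112 and 161 (0.50, adjusted p-value 0.434). Suz12, of Polycomb repressive complex 2 and the most abundant per length, had 668 and 886 against 843 and 650.0 (-0.06, adjusted p-value 0.958). Genes of the cell cycle and replication had 16 of 45 higher and a median of -0.12 (-0.053 without 8–10 w replicate 2), with 1 higher and 2 lower at an unadjusted p-value below 0.05. The cyclin Ccnb2 had 43.2 and 42.4 against 57.7 and 70.9 (0.59, adjusted p-value 0.271), the replication factors Gins1 (28.4 and 20.8 against 19.9 and 14.1) and Mcm6 (74.5 and 78.6 against 60.9 and 51.6) had log2 fold changes of -0.54 and -0.45 (adjusted p-value 0.434 for both), and Cdk1 had 360.0 and 292 against 246 and 252 (-0.39, adjusted p-value 0.529). Gmnn (geminin), the most abundant per length, had 965 and 1030 against 1090 and 789 (-0.08, adjusted p-value 0.936). In the list of later preimplantation stages, 3 of 13 genes tested were higher, the median was -0.19 (-0.387 without 10–12 m replicate 1), and Fgf4 (18.4 and 18.7 against 13.6 and 10.1, adjusted p-value 0.345) and Gata4 (23.6 and 21.9 against 15.5 and 16.4, adjusted p-value 0.409) were the 2 genes lower at an unadjusted p-value below 0.05.

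Transcript length moved with the comparison. The 15 genes that rose had a median transcript length of 1327 nt, from 541 to 3756 nt, against 2752 nt over all genes, and 11 of the 15 were below that value. The median log2 fold change was 0.12 in the shortest of 5 equal groups of genes, with transcripts of up to 1492 nt, and 0.05, -0.02, -0.05 and -0.07 in the groups of longer transcripts. Relative to genes of similar length, the median was 0.39 for the maternal list, 0.29 for the ZGA list, -0.31 for ribosome biogenesis and -0.14 for splicing factors. With the trend over length removed from each sample, 7 of the 17 genes were called and no other gene, namely Mmp12, Psenen, Rfpl4, Prl8a2, Dazl, Zfp735 and Tpp1. The part of transcript length in the other results was not tested.

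**Figure D4:**
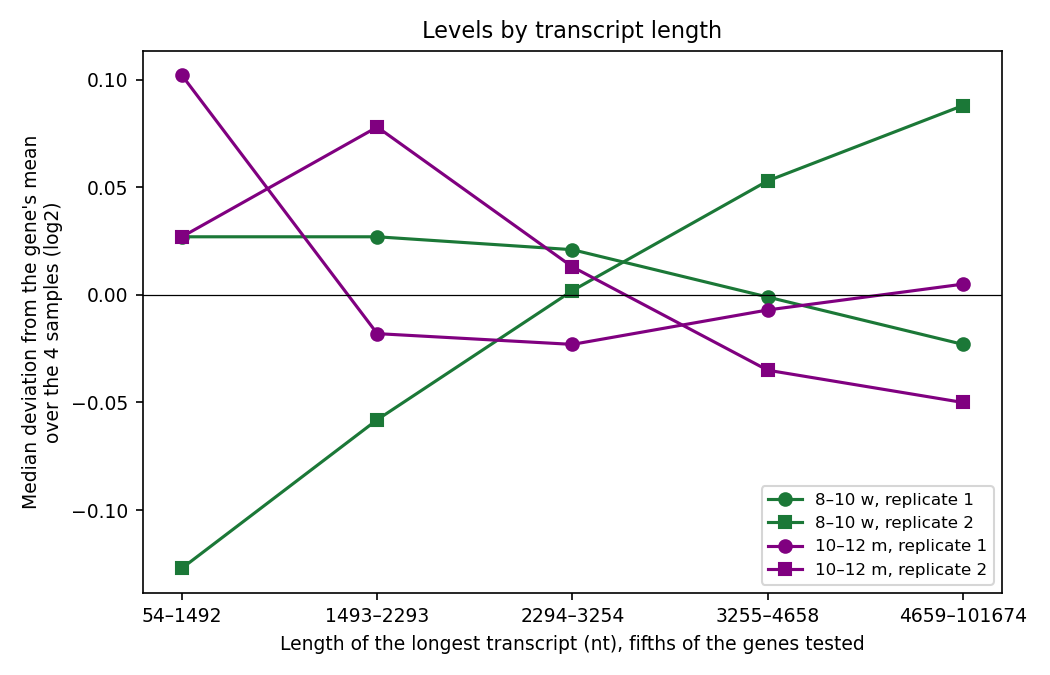
Median deviation of a gene's log2 level from its mean over the 4 samples (y axis) in 5 equal groups of the genes tested by transcript length in nt (x axis), for each 8–10 w (green) and 10–12 m (purple) sample. In the group of shortest transcripts, the 8–10 w samples lie at 0.027 and -0.127 and the 10–12 m samples at 0.102 and 0.027.

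The 6–8 m samples show where the DEGs stood at an age between the groups. In all 17 genes, the mean of the 6–8 m samples lay between the means of the other ages, although the genes were chosen for a difference between those ages, so that such an order is no independent result. Mmp12 had 7.34 and 7.70 at 6–8 m and Psenen 35.3 and 43.9. Rfpl4 had 640.0 and 471, which overlapped with the 10–12 m samples, and Dazl had 203 and 253. Prl8a2 had 16.7 and 14.1 at 6–8 m, within the range of the 10–12 m samples, while Ddx60 had 5.47 and 6.81, above them. Between 10–12 m and 6–8 m, edgeR called 0 of 13142 genes (0.0%), with 238 (1.81%) at an unadjusted p-value below 0.05, 167 higher (1.27%) and 71 lower (0.54%), and DESeq2 called 0. The edgeR count was 4 without the filter on low counts, and it also depended on the samples left out. Of the 17 DEGs, 12 were among the 238 and 15 among the 729 of 6–8 m against 8–10 w given next, which is no independent result, since the genes were chosen on samples that each of these comparisons shares. The difference between the older groups was 0.76 ± 0.26 (SE) on the log2 scale for Mmp12 and -0.09 ± 0.29 for Prl8a2. Between 6–8 m and 8–10 w, which shares the 8–10 w samples, edgeR called 0 genes (0.0%), with 729 (5.55%) at an unadjusted p-value below 0.05, 436 higher (3.32%) and 293 lower (2.23%), and DESeq2 called 1. The edgeR count for this pair was 14 without the filter on low counts, and it also depended on the samples left out. In that comparison the median log2 fold change was 0.19 for the maternal list and -0.19 for ribosome biogenesis, beside 0.37 and -0.29 for 10–12 m. Of the 50 maternal genes, 37 were higher at 6–8 m than at 8–10 w, against 49.5% of all genes, and 39 were higher at 10–12 m than at 6–8 m, against 51.9% of all genes.

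**Figure D5:**
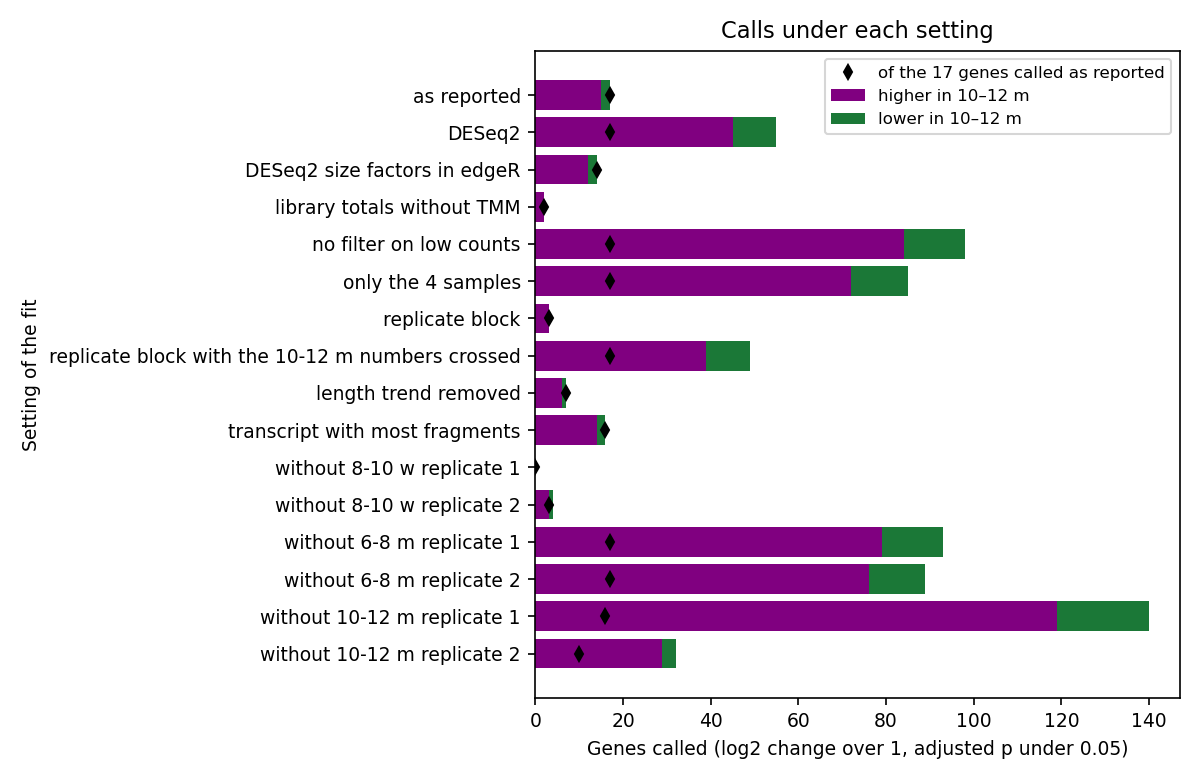
Number of DEGs between 10–12 m and 8–10 w 2-cell embryos (x axis) under each setting of the fit (y axis), with genes higher at 10–12 m in purple, lower in green, and a diamond at the number shared with the 17 as reported. The count ran from 0 without 8–10 w replicate 1 to 140 without 10–12 m replicate 1.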

How the data were processed

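RNA of pooled 2-cell embryos was amplified by Smart-Seq2 and sequenced as paired ends. Per the labels and the study's methods, the authors trimmed reads with Cutadapt and aligned them to mm10 with STAR. The study's methods name HTSeq for the read count matrix, and whether it made the per-transcript counts used here is not stated. The deposited files hold a fragment count per RefSeq transcript, which was tested here, and an FPM signal (fragments scaled to a common total) made by the authors, which served only to recover each sample's total number of fragments.

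Counts were taken for the longest transcript of each gene, 24222 genes in all, of which 13142 passed edgeR's filterByExpr (minimum count 10, total 15). All 6 samples of 2-cell embryos (2 a group, 12527845 to 18703094 fragments) were fitted in one model by the edgeR 4.0.16 quasi-likelihood test with TMM scaling in R 4.3.3, with Benjamini-Hochberg adjustment over all genes. DEGs had an absolute log2 fold change over 1 and an adjusted p-value under 0.05. DESeq2 1.42.0, other scalings, no filter, a replicate block, and fits without each sample were alternatives. The scripts were tested on simulated data.

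The genes named were, among DEGs whose groups did not overlap, the 10 with the smallest adjusted p-value in each direction, with all DEGs given. In each list they were members with an adjusted p-value under 0.05, up to 4 with the smallest p-value and the most abundant per length, with the markers of other cells and Cdk9, Fanca, Ube2d3 and Mnat1. The comparison, genes and lists were chosen with earlier results of these data known. Other columns and the samples of other stages were not used here.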

Additional observations from a re-analysis of the deposited data

How the results depend on the processing

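The count of DEGs was 17. It was 55 with DESeq2, 2 without TMM scaling, 98 without the filter on low counts, 85 with only the 4 samples in the fit, 7 with the length trend removed and 42 at an adjusted p-value under 0.1. At any fold change, the genes with an adjusted p-value under 0.05 numbered 17 as reported and 94, 2, 171, 147 and 7 in the first 5 of these settings, and 51 genes had an adjusted p-value under 0.1. DESeq2's size factors in edgeR gave 14 and the transcript with most fragments 16. Leaving out 1 sample gave 0 to 140 DEGs and 0 to 170 genes at any fold change, with 0 (768 at an unadjusted p-value under 0.05) without 8–10 w replicate 1, 93 DEGs without 6–8 m replicate 1 and 89 without replicate 2. A group left with 1 sample is assumed to vary like the others. The 17 genes kept their direction in all 15 settings. Between 10–12 m and 6–8 m, 4 genes were called without the filter and 2 to 4 with 1 sample left out, against 0. Between 6–8 m and 8–10 w, 1 gene was called with DESeq2, 14 without the filter and 0 to 32 with 1 sample left out, against 0.

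With the replicate number as a block, 3 genes were called at either threshold (Mmp12, Psenen and Med30). Deviations of same-numbered samples correlated at 0.011 between 10–12 m and 8–10 w, 0.299 between 6–8 m and 8–10 w and -0.506 between 10–12 m and 6–8 m over 8016 genes. The numbers were not taken to pair the samples, since not every pair of groups had a positive correlation, and whether the 2 experiments lie behind these correlations was not tested, because the samples are not labelled by experiment. With the 10–12 m numbers crossed in the replicate block, 49 DEGs and 102 genes at any fold change were called. No label gives this crossing, and it makes the correlation between 10–12 m and 6–8 m positive. These counts are therefore no independent result.

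The following values turned in sign, and the cause was not tested. With 1 sample left out, the log2 fold change of Dppa3 ran from -0.2913 to 0.3887, of Suz12 from -0.2537 to 0.1635, of Gmnn from -0.3323 to 0.1316, of Fanca from -0.0351 to 0.1387 and of Gdf9 from -0.3848 to 0.3005. The median ran from -0.0381 to 0.1433 for the mRNA decay list, from -0.0892 to 0.0178 for p53 targets, from -0.322 to 0.0259 for the interferon list and from -0.0675 to 0.3281 for the respiratory chain. With the length trend removed, Dppa3 had -0.0662 and the respiratory chain a median of -0.0211. Without the filter on low counts, Gdf9 had 0.0033 and p53 targets a median of 0.0044. Without TMM, the median of the mRNA decay list was -0.0046.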

Other observations

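Families of the oocyte that were listed after the values were seen had medians above that of all genes, with no gene other than Obox1 and Obox2 called. Over all genes tested, 49.8% were higher, and 6.88% were higher and 3.42% lower at an unadjusted p-value below 0.05. Higher at that p-value were 4 genes of the Obox family (66.7%), 5 of the Tcl1 family (83.3%) and 4 Nlrp genes (33.3%). The Oog1 family had 2 (50.0%) and the subcortical maternal complex 2 (25.0%), and in each family 0 were lower. In the Obox family, 4 of 6 genes tested were higher and the median log2 fold change was 0.86. Obox5, its most abundant member per length, had 934 and 1360 normalized FPM at 8–10 w and 1800 and 2430 at 10–12 m (adjusted p-value 0.148), and Obox7 had 47.5 and 58.6 against 106 and 84.4 (adjusted p-value 0.116). Obox3 had 314 and 392 against 324 and 346, and its samples overlapped. In the Tcl1 family, 6 of 6 genes were higher with a median of 0.55, and Tcl1b2 had 360.0 and 409 against 691 and 862 (adjusted p-value 0.091 by the edgeR test). Of 12 Nlrp genes of the oocyte, 11 were higher with a median of 0.42 (0.175 without 8–10 w replicate 1 and 0.724 without 8–10 w replicate 2), and Nlrp4b had 38.9 and 46.8 against 67.5 and 73.1 (adjusted p-value 0.154). The 4 genes of the Oog1 family had a median of 0.37. In the subcortical maternal complex, 7 of 8 genes were higher with a median of 0.15 (0.286 without 10–12 m replicate 1). Zbed3 of that complex was high in 1 sample of each older group, with 1610 and 742 at 6–8 m and 786 and 1600 at 10–12 m. The summed level of the complex, Zbed3 included, was 908.6 and 1086 at 8–10 w, 1991 and 1176 at 6–8 m and 1190 and 2085 at 10–12 m. These families are near copies in part, and they overlap with the maternal list.

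Glutathione S-transferases and glutaredoxins, also listed after the values were seen, had 13 of 16 genes higher (81.2%, against 49.8% of all genes) and a median of 0.48. Of these, 7 (43.8%, against 6.88%) were higher and 1 of the list (6.25%, against 3.42%) was lower at an unadjusted p-value below 0.05. Glrx and Mgst3 were called, where 0.129% of all genes were. The list includes these DEGs, so that its counts are no independent evidence. Gstp1 had 12.1 and 14.7 against 26.7 and 24.8 (adjusted p-value 0.0987) and Gstm1 had 3.71 and 1.89 against 11.1 and 5.52 (adjusted p-value 0.102). The gamma-secretase and Mediator lists were written because Psenen and Med30 were called and include these genes, so that their counts are no independent evidence. Of the 6 gamma-secretase genes tested, 6 were higher and Psenen alone was called, while 1 was higher at an unadjusted p-value below 0.05. Of 27 Mediator genes, 11 were higher (40.7%, against 49.8%) with a median of -0.04 (-0.14 without 10–12 m replicate 1 and 0.003 without 8–10 w replicate 1). Med17 had 25.7 and 15.0 against 13.0 and 10.4 (adjusted p-value 0.299), so that it lay on the other side from Med30.

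Between an adjusted p-value of 0.05 and 0.1 lay 34 genes, 30 higher and 4 lower. The first of these were Pdcd6, a calcium-binding protein (8.93 and 8.08 against 24.0 and 16.8), Trappc2, of a vesicle tethering complex (83.8 and 116 against 201 and 212), Iqub (102 and 67.2 against 44.4 and 33.9) and Lipo3 (8.05 and 9.89 against 2.65 and 2.98), each with an adjusted p-value of 0.0501 by the edgeR test. The group also held Spp1, with 2.96 and 1.59 against 15.3 and 5.03. Spp1 was highest in 10–12 m replicate 1, the sample with the higher macrophage sum. The part of macrophages in this gene was not tested.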
